A study of Mus musculus with 8 samples.

Results

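The genes described here carry newly made secretory and membrane proteins into the endoplasmic reticulum (ER), remove their signal peptides and attach and trim their asparagine-linked glycans. They are 42 genes, chosen by symbol from textbook membership in these complexes, out of 22923 gene symbols in the deposited tables. The choice was made with earlier results of these data known, and other genes of the same steps were left out of it. Shares of the 42 genes beside all genes are therefore descriptions and not tests. All 42 were found as single entries, all had at least 1 RPKM (reads per kilobase of transcript, scaled to the mapped reads of a library) in at least 1 group, and none was listed at 0. They fall into 8 sets, which are the signal recognition particle (SRP, 5 genes), its receptor (2), the translocon (6), the translocon-associated protein complex (TRAP, 4), signal peptidase (5), the oligosaccharyltransferase (9), enzymes that build the lipid-linked oligosaccharide (7) and enzymes that trim or check the transferred glycan (4).

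RNA came from liver of C57BL/6 mice. Flox controls carried the floxed Xbp1 allele (genotype Xbp1flox), and the knockout mice lacked Xbp1 in the liver (genotype Xbp1-/-). Each genotype received either regular chow or a diet rich in fat to which the equivalent of high-fructose corn syrup was added, for 4 weeks. The 4 groups are called chow-fed flox, fat-fed flox, chow-fed knockout and fat-fed knockout, and sets of 4 values below are in that order. Each group had 4 mice pooled into 2 libraries. The deposited tables give 1 value per gene and group. Values per library were not analysed here, so no difference below has a replicate check, no p-value or error is given, and the spread between mice is unknown. Sex, age and the Cre line were not given in the sources used here.

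Xbp1 encodes a transcription factor that is made in its active form after the ER stress sensor IRE1 splices its messenger RNA. In secretory cells it is known for driving genes of ER protein import, folding and glycosylation. Hepatocytes secrete most plasma proteins, nearly all of them through the translocon and many of them with N-linked glycans.

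Xbp1 itself stood at 112 RPKM in chow-fed flox, 90.7 in fat-fed flox, 44.2 in chow-fed knockout and 34.1 in fat-fed knockout. The knockout value was 39.6% of the flox value on chow and 37.6% on high fat. A whole-gene value includes any exons that remain after deletion and RNA from liver cells other than hepatocytes. The deposited values summed to between 367414 RPKM in fat-fed knockout and 513694 RPKM in chow-fed flox, and read depth is unknown. Hepatocyte markers were present at high levels, with 23835 to 44678 RPKM summed over 10 genes, of which Serpina1a was listed at 0 in every group but fat-fed knockout. The other 9 hepatocyte markers had a median log2 change of -0.28 between knockout and flox livers on chow and -0.57 on high fat. Cholangiocyte markers (8 genes) summed to 23.8 RPKM in chow-fed flox, 25.1 in fat-fed flox, 46.7 in chow-fed knockout and 119 in fat-fed knockout. Most of each sum was Spp1 alone, at 19.7, 20.6, 39.4 and 103 RPKM. The corresponding sums were 77.1 to 128 RPKM for 6 macrophage markers and 97.0 to 163 RPKM for 6 stellate cell markers, both highest in fat-fed knockout. Most of the stellate cell sums was Dcn, at 86.7, 80.0, 108 and 130 RPKM. Endothelial markers (5 genes) summed to 55.4 to 64.5 RPKM. For plasma cells and lymphocytes, which include cells rich in ER, 4 markers summed to 2.06 to 3.73 RPKM. Of 4 pancreatic acinar markers, Prss1, Cpa1 and Pnlip were listed at 0 in all groups and Cela1 summed to 3.39 to 12.2 RPKM. The part of these cell types in the results below was not tested. In bulk liver RNA, fewer hepatocytes and less RNA per hepatocyte cannot be told apart.

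Most of the 42 genes had lower values in knockout than in flox livers on both diets, Srp14 and Tusc3 being the exceptions on chow. Their median level was 34.7 RPKM in chow-fed flox and 32.2 RPKM in fat-fed flox, against 20.7 RPKM in chow-fed knockout and 21.4 RPKM in fat-fed knockout. Summed, they made up 0.390% of all RPKM in chow-fed flox, 0.355% in fat-fed flox, 0.279% in chow-fed knockout and 0.299% in fat-fed knockout. These shares also depend on the sum over all genes, which was 461392 RPKM in chow-fed and 367414 in fat-fed knockout. The members' own sum was 1285 RPKM in chow-fed and 1098 in fat-fed knockout, so it was lower where the share was higher. In 34 of the 42 genes both flox values lay above both knockout values, an order found in 29.5% of all genes with a value in every group. The exceptions were Srp14, Ssr2, Spcs1, Dad1, Tusc3, Alg3, Alg5 and Dpm3. With the groups rescaled to a common median the count was 32 of 42 against 19.4% of all genes. With sums equalised without the 50 most abundant genes, it was 29 of 42 against 10.6%.

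**Figure D1:**
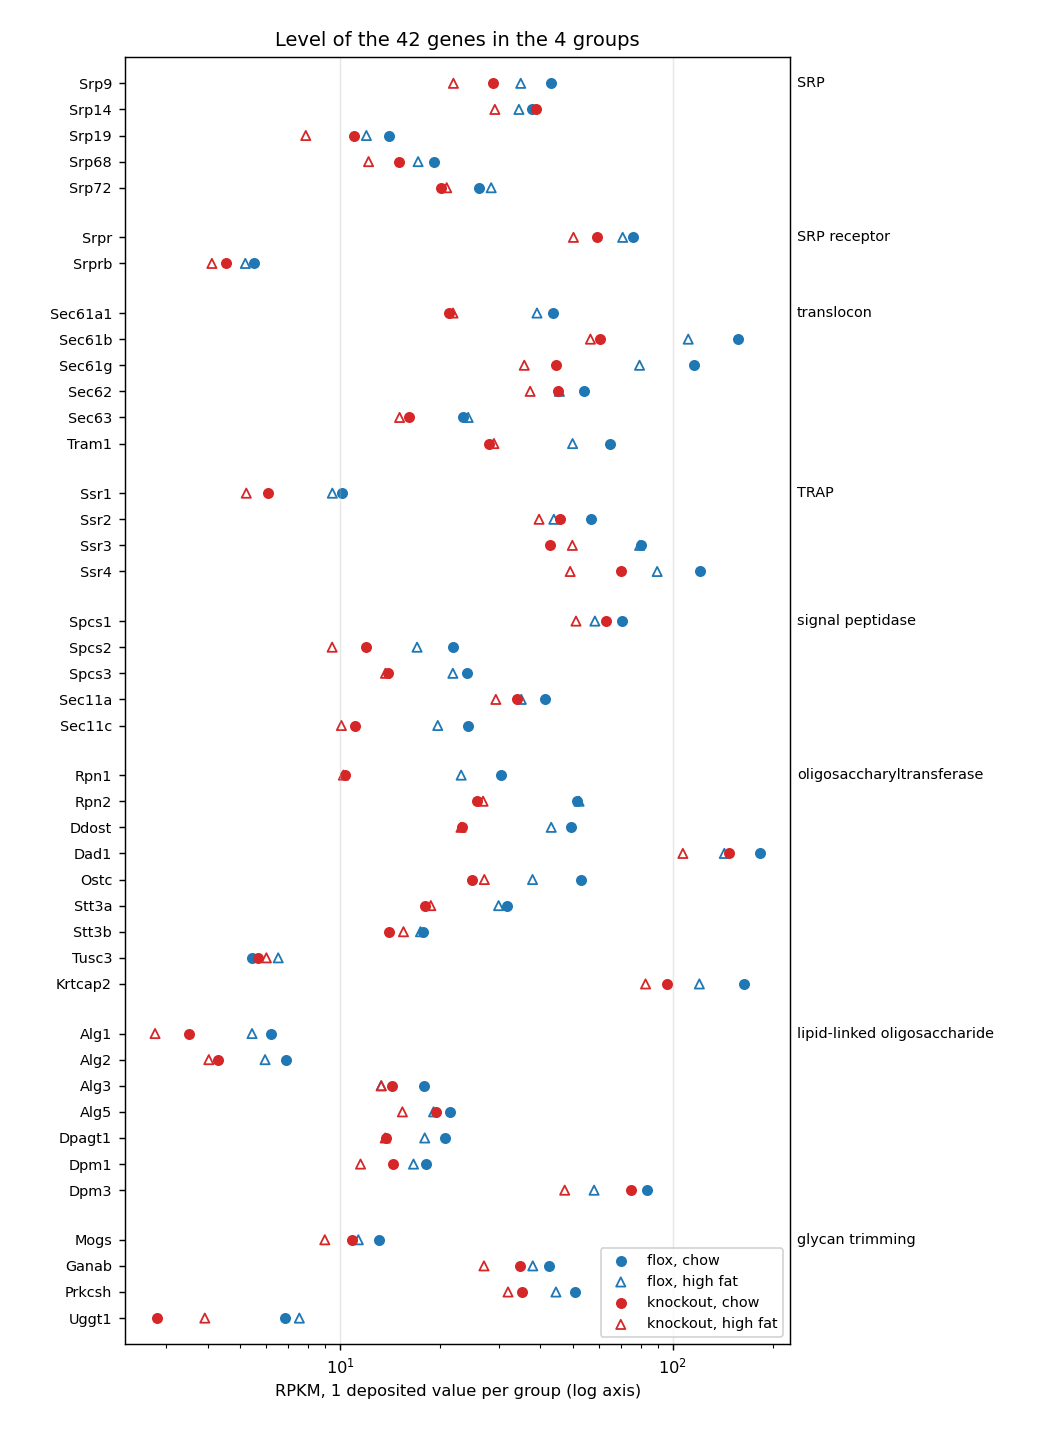
RPKM of each of the 42 genes (rows, grouped by complex) in the 4 groups on a log axis. Blue symbols are flox and red symbols knockout, filled circles are chow and open triangles high fat, and each symbol is 1 deposited value without an error. In 34 rows both red symbols lie to the left of both blue ones.

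For each gene the change between 2 groups was taken as the log2 ratio of RPKM plus a pseudocount of 1, and a gene is said to have risen or fallen when this log2 change was at least 1 in size, which is a 2-fold change of that quantity. On chow, 9 of the 42 genes fell in knockout livers and 0 rose, while 1.37% of all 10322 genes with a value fell and 0.252% rose. The 9 were 4 genes of the translocon, 3 of the oligosaccharyltransferase, 1 of signal peptidase and the glycoprotein folding sensor gene Uggt1. In all, 40 of 42 were lower by any amount on chow, against 54.2% of all genes, with a median log2 change of -0.54 beside -0.02 for all genes. Across the high-fat groups 2 genes fell, Sec61g and Rpn1, which is 4.76% of the members against 1.86% of all 10327 genes, and 0 rose, against 1.07%. All 42 were lower by any amount on that diet, against 70.1% of all genes, with a median log2 change of -0.49 beside -0.13 for all genes, and the value of Alg3 was -0.00. With the groups at a common median 38 of 42 were lower on high fat, against 46.2% of all genes, and with equalised sums 33 of 42, against 31.3%. At a smaller change of 1.5-fold, 18 of 42 genes were lower on each diet, against 3.84% of all genes on chow and 8.33% on high fat. The median of the 9 hepatocyte markers with a value, given above, was closer to zero than that of the 42 genes on chow and further from zero on high fat.

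Rescaling changed how many genes passed the threshold. With the groups at a common median, 7 of the 42 genes fell on chow, against 1.21% of all genes, and 0 on high fat, against 1.11%. With equalised sums 4 fell on chow, against 0.988% of all genes, and 0 on high fat, against 0.855%. The 42 genes kept a median log2 change below that of all genes under both, with -0.50 beside 0.02 and -0.39 beside 0.10 on chow, and -0.32 beside 0.02 and -0.21 beside 0.12 on high fat.

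Of the 6 translocon genes, 4 fell on chow and 1 on high fat, against 1.37% and 1.86% of all genes. Sec61b and Sec61g of the SEC61 channel were lowest relative to flox. Sec61b, a small tail-anchored subunit of the channel, was at 157 RPKM in chow-fed flox, 111 in fat-fed flox, 60.3 in chow-fed knockout and 56.6 in fat-fed knockout. Both knockout values were thus below both flox values, and Sec61b fell on chow with a log2 change of -1.37 (-0.96 on high fat). Sec61g, which encodes the other small subunit, was at 116, 79.4, 44.6 and 35.8 RPKM in the same order of groups. It fell on both diets, with log2 changes of -1.36 and -1.13. Sec61a1, the gene of the pore-forming subunit, was at 43.7 and 39.1 RPKM in chow-fed flox and fat-fed flox and at 21.2 and 21.9 RPKM in the matching knockout groups. Its log2 change was -1.01 on chow and -0.81 on high fat, so the 3 channel genes retained 38.3% (Sec61b), 38.4% (Sec61g) and 48.5% (Sec61a1) of their chow-fed flox level. Tram1, which encodes a membrane protein that sits beside the channel and helps signal sequences engage it, was at 64.9 and 49.985 RPKM in chow-fed flox and fat-fed flox and at 28.0 and 29.0 RPKM in the knockout groups. It fell on chow, with a log2 change of -1.18 (-0.76 on high fat). Sec62 and Sec63 encode partners of the channel in post-translational import, where SEC63 recruits the chaperone BiP. Sec62 was at 54.2, 45.6, 45.3 and 37.3 RPKM in chow-fed flox, fat-fed flox, chow-fed knockout and fat-fed knockout. Its log2 change of -0.25 on chow was the smallest of the 6 translocon genes, and that of Sec63 was -0.51. With the groups at a common median, Sec61a1 no longer passed the threshold on chow (log2 change -0.97), while Sec61b, Sec61g and Tram1 still did.

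The genes of the SRP, which binds signal sequences as they leave the ribosome, and of its receptor were lower by less. None of the 7 passed the threshold on either diet, against 1.62% of all genes on chow and 2.93% on high fat. The median log2 change of the 5 SRP genes was -0.33 on chow and -0.46 on high fat. Srp9, whose product forms with that of Srp14 the part of the particle that pauses translation, was at 43.1 and 34.9 RPKM in chow-fed flox and fat-fed flox and at 28.8 and 21.9 RPKM in the knockout groups (log2 change -0.56 on chow). Srp14 was at 37.8, 34.5, 38.7 and 29.2 RPKM in chow-fed flox, fat-fed flox, chow-fed knockout and fat-fed knockout, so its chow-fed knockout value was not below flox (log2 change 0.03). The Srp9 and Srp14 values thus differed in their order of groups although their proteins act as a pair. Srp19, Srp68 and Srp72, which encode further proteins of the particle, had log2 changes of -0.32, -0.33 and -0.36 on chow. Srpr, the receptor subunit that binds SRP, was at 75.8, 70.7, 59.2 and 50.3 RPKM (log2 change -0.35 on chow), and Srprb, its membrane anchor, at 5.505, 5.19, 4.54 and 4.12 RPKM (-0.23 on chow).

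The TRAP complex binds the translocon and assists the import of some proteins. Of its 4 genes 0 passed the threshold, against 1.62% of all genes on chow and 2.93% on high fat. Their median log2 change was -0.72 on chow and -0.71 on high fat. Ssr3 had the largest difference on chow and was at 80.1 and 79.5 RPKM in chow-fed flox and fat-fed flox and at 42.7 and 49.9 RPKM in the knockout groups (log2 change -0.89 on chow). Ssr4 (-0.79) and Ssr1 (-0.65) lay close to it on chow. Ssr2 was at 56.8, 43.9, 45.9 and 39.6 RPKM in chow-fed flox, fat-fed flox, chow-fed knockout and fat-fed knockout, with a log2 change of -0.30 on chow, the smallest of the complex. Its chow-fed knockout value was above its fat-fed flox value.

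Signal peptidase cleaves signal peptides at the luminal face of the translocon. The members differed within the complex, also between the catalytic subunits, which are encoded by the related genes Sec11a and Sec11c. Sec11c was at 24.3 and 19.7 RPKM in chow-fed flox and fat-fed flox and at 11.1 and 10.1 RPKM in the knockout groups. It fell on chow with a log2 change of -1.06 (-0.90 on high fat). Sec11a was at 41.2, 35.1, 34.0 and 29.4 RPKM in chow-fed flox, fat-fed flox, chow-fed knockout and fat-fed knockout (-0.27 on chow, -0.25 on high fat). The ratio of Sec11a to Sec11c RPKM, which does not depend on how the groups are scaled, was 1.70 and 1.78 in chow-fed flox and fat-fed flox and 3.06 and 2.91 in chow-fed knockout and fat-fed knockout. Of the accessory subunits, Spcs2 was at 21.9, 17.0, 11.96 and 9.47 RPKM (-0.82 on chow) and Spcs3, which the enzyme needs for activity, at 24.0, 21.8, 13.9 and 13.7 RPKM (-0.75 on chow). Spcs1 was at 70.3, 58.3, 63.0 and 51.2 RPKM and had the smallest change of the complex on chow, at -0.16.

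**Figure D2:**
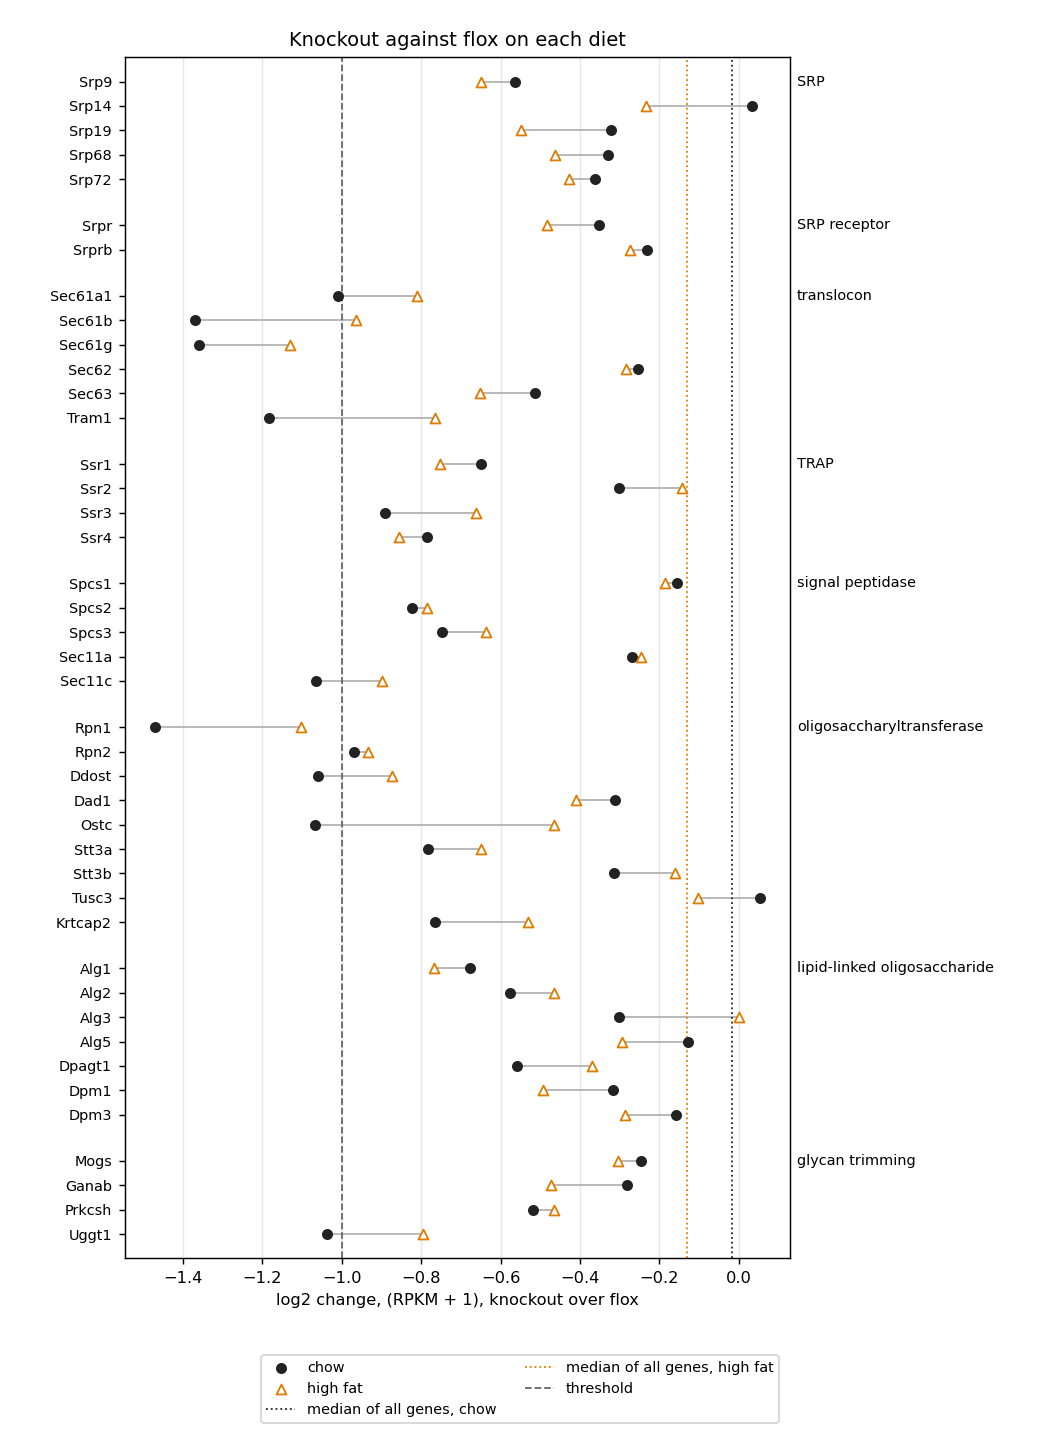
Log2 change of RPKM plus 1 in knockout over flox livers for each of the 42 genes (rows), on chow (black circles) and on high fat (orange triangles). The dashed line is the threshold of -1 and dotted lines are the medians of all genes (-0.02 and -0.13); 9 black circles and 2 triangles lie at or left of the threshold.

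The oligosaccharyltransferase moves the finished glycan from its lipid carrier to asparagine residues of incoming proteins. It exists in mammals in an STT3A form, which sits at the translocon and contains the products of Ostc and Krtcap2, and an STT3B form, which contains the product of Tusc3 or Magt1 and reaches sites that the first form missed. Of 9 genes, 3 fell on chow and 1 on high fat, against 1.37% and 1.86% of all genes. The median log2 changes were -0.78 and -0.53, beside -0.02 and -0.13 for all genes. Rpn1, ribophorin I of both forms, had the largest log2 change of all 42 genes on chow, at -1.47. It was at 30.5 RPKM in chow-fed flox, 23.1 in fat-fed flox, 10.4 in chow-fed knockout and 10.2 in fat-fed knockout, so both knockout values were nearly equal and below both flox values. Its log2 change on high fat was -1.10. Ddost, a further subunit of both forms, was at 49.5 and 43.1 RPKM in chow-fed flox and fat-fed flox and at 23.2 and 23.1 RPKM in the knockout groups, and fell on chow (-1.06, with -0.87 on high fat). Rpn2, ribophorin II, came close to the threshold (51.6, 52.3, 25.9 and 26.9 RPKM, log2 changes -0.97 and -0.93). Dad1, the most abundant of the 42 genes in all groups, was at 183, 143, 147 and 107 RPKM (log2 change -0.31 on chow), so subunits of both forms did not share 1 pattern.

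The genes of the catalytic subunits differed in size of change. Stt3a was at 31.7 and 29.96 RPKM in chow-fed flox and fat-fed flox and at 18 and 18.7 RPKM in the knockout groups (log2 changes -0.78 and -0.65). Stt3b was at 17.7, 17.5, 14.0 and 15.5 RPKM in chow-fed flox, fat-fed flox, chow-fed knockout and fat-fed knockout (-0.31 and -0.16). The ratio of Stt3a to Stt3b RPKM was 1.79 in chow-fed flox, 1.72 in fat-fed flox, 1.28 in chow-fed knockout and 1.21 in fat-fed knockout. Ostc was at 53.1 and 37.9 RPKM in chow-fed flox and fat-fed flox and at 24.8 and 27.1 RPKM in the knockout groups, and fell on chow (-1.07, with -0.47 on high fat). Krtcap2 was at 164, 120, 96.1 and 82.8 RPKM (-0.76 and -0.53). Tusc3 was at 5.44, 6.52, 5.69 and 6.01 RPKM, with log2 changes of 0.05 and -0.10, the smallest of the complex on chow. The alternative subunit Magt1, not among the 42 genes, was at 16.5, 14.9, 7.75 and 8.93 RPKM and retained 47.0% of its flox level on chow and 59.8% on high fat. On chow the STT3B-form genes thus ran from 47.0% (Magt1) to 104% (Tusc3) of flox, and those of the STT3A form from 46.8% (Ostc) to 58.6% (Krtcap2).

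**Figure D3:**
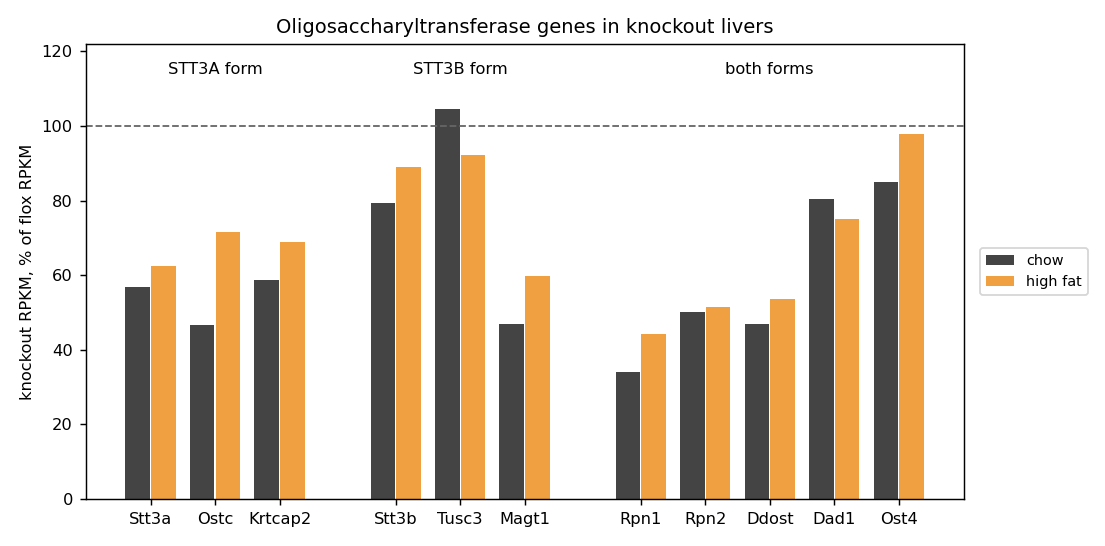
Knockout RPKM as a percentage of flox RPKM for 11 oligosaccharyltransferase genes on chow (dark bars) and high fat (orange bars), grouped by the form of the enzyme; the dashed line marks 100% and bars are single values without error. Rpn1 has the lowest bar on each diet (34.0% and 44.3%), and Tusc3 lies at 104% and 92.1%.

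The lipid-linked oligosaccharide genes were lower by less than those of the transferase. Of the 7 genes 0 passed the threshold, against 1.62% of all genes on chow and 2.93% on high fat. All 7 were lower on chow, against 54.2% of all genes. The median log2 change was -0.32 on chow and -0.37 on high fat, beside -0.02 and -0.13 for all genes. Alg1, which adds the first mannose, was at 6.20 and 5.44 RPKM in chow-fed flox and fat-fed flox and at 3.51 and 2.78 RPKM in the knockout groups (log2 changes -0.68 and -0.77, the largest of the set on both diets). Alg2, which adds the next mannoses, followed at -0.58 on chow, and Dpagt1, the enzyme that starts the chain and the target of tunicamycin, at -0.56. Alg5, which makes the dolichol-linked glucose donor, had the smallest change on chow (21.4, 19.1, 19.4 and 15.4 RPKM, log2 change -0.13). Alg3 had 13.3 RPKM in both high-fat groups (log2 change -0.30 on chow and -0.00 on high fat). The dolichol-phosphate mannose synthase genes Dpm1 and Dpm3 had log2 changes of -0.32 and -0.16 on chow.

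Of the genes that act on the transferred glycan, Uggt1 fell on chow. It encodes the glucosyltransferase that marks unfolded glycoproteins for another round of chaperone binding. Uggt1 was at 6.81 and 7.55 RPKM in chow-fed flox and fat-fed flox and at 2.81 and 3.92 RPKM in the knockout groups (log2 changes -1.04 and -0.80), and it no longer passed on chow with the groups at a common median (-0.998). The lowest and highest of its 4 values were thus in the knockout and the flox livers. Mogs, glucosidase I, had the smallest change of the set at 13.1, 11.4, 10.9 and 8.9999 RPKM (-0.25 and -0.30). The subunits of glucosidase II were at -0.28 and -0.47 (Ganab, catalytic) and at -0.52 and -0.47 (Prkcsh, regulatory) on chow and high fat.

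Promoter windows were searched for motifs of the ER stress response, since XBP1 is known to bind such elements. RefSeq windows of 300 bases, from 250 before to 50 after a transcription start on GRCm38.p6, were matched by symbol for 31 of the 42 genes, among them 5 of the 9 that fell on chow. The motifs, searched on both strands, were the ER stress element (CCAAT, 9 bases of any kind, CCACG), the related element II (ATTGG, 1 base of any kind, CCACG), the unfolded protein response element TGACGTGG and the cores ACGTG and CCACG. The cores overlap the longer motifs, since CCACG is the end of both stress elements and its reverse complement, like ACGTG, lies in TGACGTGG. Members were counted by gene, so shares are given over the 7451 matched genes kept by the filter as well as over all 32851 windows, of which a gene can have several. The ER stress element was in 0 of 31 members (0.201% of matched genes, 0.119% of windows), element II in 1 (0.0805% and 0.0365%), and TGACGTGG in 0 (0.899% and 0.676%). ACGTG was in 14 of 31 members (29.98% of matched genes, 19.6% of windows), and CCACG was in 19 of 31 (52.5% and 32.8%). Of the 5 matched genes that fell on chow, 0 held ACGTG and 2 held CCACG. Matches are descriptions of letters in these windows and not binding sites.

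The first 3 sequences are the 250 bases before the start of the members with the largest falls on chow, and the last is the stretch around the 1 match to element II, from 70 bases before to 30 bases after a Krtcap2 start. Capitals mark matches to any of the motifs (in Krtcap2, CCACG with the overlapping reverse complement of ACGTG, and then element II at bases 18 to 28 after the start).
Rpn1, chr6:88084223-88084472, plus strand: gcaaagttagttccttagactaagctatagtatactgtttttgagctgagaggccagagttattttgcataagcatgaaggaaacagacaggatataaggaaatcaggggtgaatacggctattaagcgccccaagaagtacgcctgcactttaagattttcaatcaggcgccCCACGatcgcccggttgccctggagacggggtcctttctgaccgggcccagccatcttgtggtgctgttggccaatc
Sec61b, chr4:47474411-47474660, plus strand: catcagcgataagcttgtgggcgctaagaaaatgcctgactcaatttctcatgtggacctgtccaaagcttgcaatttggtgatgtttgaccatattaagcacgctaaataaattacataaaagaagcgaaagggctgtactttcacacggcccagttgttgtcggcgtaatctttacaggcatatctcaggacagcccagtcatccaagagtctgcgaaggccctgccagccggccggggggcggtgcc
Sec61g, chr11:16508485-16508734, minus strand: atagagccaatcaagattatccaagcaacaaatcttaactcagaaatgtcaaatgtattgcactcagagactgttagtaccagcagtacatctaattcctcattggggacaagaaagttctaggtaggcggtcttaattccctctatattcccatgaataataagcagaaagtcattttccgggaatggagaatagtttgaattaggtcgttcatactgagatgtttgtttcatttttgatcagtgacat
Krtcap2, chr3:89246403-89246502, plus strand: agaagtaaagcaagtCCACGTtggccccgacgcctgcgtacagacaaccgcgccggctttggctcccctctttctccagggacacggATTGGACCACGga
The Rpn1 stretch holds a single CCACG, and those of Sec61b and Sec61g hold none of the motifs. Sec61b starts 324 bases from Alg2, which is transcribed in the other direction (GENCODE M21 on GRCm38, chromosome 4), and these neighbours had log2 changes of -1.37 and -0.58 on chow. Krtcap2 and Dpm3 lie 9451 bases apart on chromosome 3 and had log2 changes of -0.76 and -0.16.

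The changes on chow and on high fat, which come from different groups, had a Pearson correlation of 0.88 and a Spearman correlation of 0.88 across the 42 genes, beside 0.61 and 0.55 across 10319 genes. The genes of 1 comparison share libraries and scaling and are not independent, so this is a description. The difference between the knockout changes on the diets (high fat minus chow, called the interaction) passed the threshold in 0 of 42 genes, against 1.23% of all genes. Its median was 0.03 for the members and -0.10 for all genes, and 22 members had a positive value, against 32.1% of all genes. Rescaling to a common median gave a median of 0.17 beside 0.02, with 35 positive members against 53.5% of all genes, and equalised sums gave 0.18 beside 0.03, with 36 against 56.3%. At 1.5-fold 1 member, Ostc, had a higher value, against 2.32% of all genes. All 9 genes that fell on chow were less far below flox on high fat, which is a description, since each was picked for its value on chow. Ostc had the largest interaction, at 0.60, then Tram1 (0.42) and Sec61b (0.41). The lowest were Srp14 (-0.27) and Srp19 (-0.23). Under the common median the values of the 42 genes ran from -0.12 to 0.74.

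Diet itself went with small differences in these genes. The 2 diet comparisons share groups with the genotype comparisons above and so are not independent of them. In flox livers 0 of 42 genes passed the threshold, against 0.639% of all genes, and 37 of 42 were lower on high fat, against 52.5% of all genes. The median log2 change was -0.19 beside -0.01 for all genes, and after rescaling it was -0.17 beside 0.00 (common median) and -0.07 beside 0.09 (equalised sums). The lower members then numbered 36, against 49.2% of all genes, and 29, against 30.8%. The largest differences in flox livers were those of Sec61g (-0.54), Dpm3 (-0.52) and Sec61b (-0.50), and the highest value that of Tusc3 (0.22). In knockout livers 0 of 42 passed, against 1.46% of all genes, and 32 of 42 were lower on high fat, against 66.4%, with a median of -0.16 beside -0.11. This median was -0.01 at a common median and changed sign, to 0.10, with equalised sums, where all genes had medians of 0.03 and 0.13. The number of lower members in knockout livers was 21 of 42 at a common median, against 45.9% of all genes, and 14 of 42 with equalised sums, against 30.3%. At 1.5-fold 1 gene, Dpm3, was lower, against 4.7% of all genes. Dpm3 was lowest (-0.65) and Uggt1 highest (0.37) in knockout livers.

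**Figure D4:**
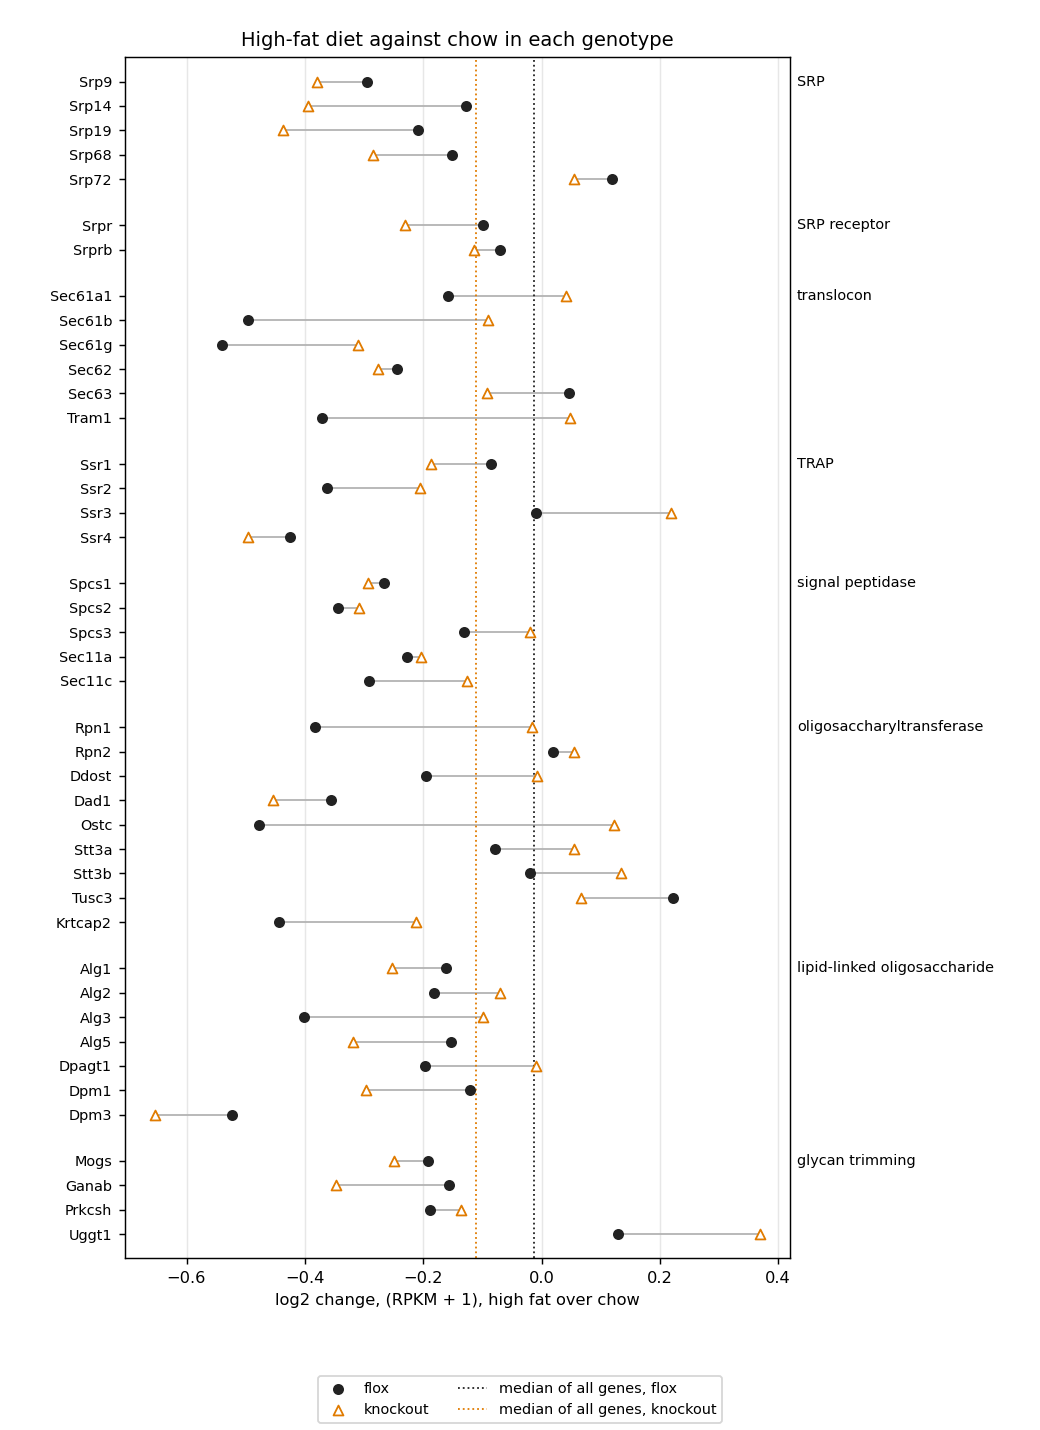
Log2 change of RPKM plus 1 on high fat over chow for each of the 42 genes (rows), in flox (black circles) and knockout livers (orange triangles), with the medians of all genes as dotted lines (-0.01 and -0.11). No symbol reaches a log2 change of 1 in size, and Ostc has the widest gap, from -0.48 in flox to 0.12 in knockout.

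Transcript length moved with the diet difference across all genes. Among the 9980 genes with a coding transcript in GENCODE M21, those under 1 kb (893 genes) had a median log2 change with high fat of -0.20 in flox and -0.35 in knockout livers. Genes of 2 kb or more (6427) had medians of 0.04 and -0.05. The 12 members under 1 kb, among them Sec61b, Sec61g, Ssr4, Krtcap2 and Dpm3, had medians of -0.35 in flox and -0.30 in knockout livers, and the 22 members of 2 kb or more -0.15 and -0.02. The part of length in the diet differences was not tested. The genotype difference of the members on chow had a median of -0.54 under 1 kb, -0.44 in the 8 members of 1 to 2 kb and -0.54 from 2 kb, beside -0.03, -0.03 and -0.01 for all genes. On high fat these medians were -0.54, -0.48 and -0.48, beside -0.18, -0.16 and -0.11 for all genes.

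**Figure D5:**
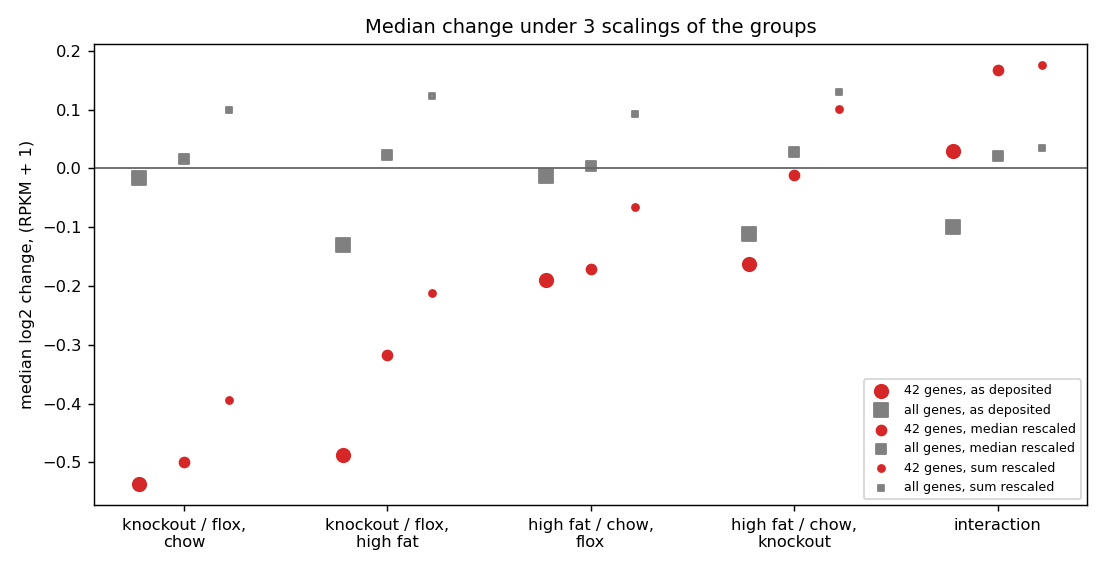
Median log2 change of the 42 genes (red circles) and of all genes (grey squares) in the 5 comparisons, from large to small symbols for the values as deposited, rescaled to a common median and with sums equalised after leaving out the 50 most abundant. The red symbols lie below the grey ones in every scaling of both knockout comparisons, for example -0.54 against -0.02 on chow as deposited.

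Other genes of import and glycosylation outside the 42 were counted from lists of related functions. Of 24 listed genes of translocation and membrane insertion, 17 were matched. On each diet 1 of them fell, against 1.37% of all genes on chow and 1.86% on high fat. Their median log2 changes were -0.11 and -0.27, beside -0.02 and -0.13 for all genes. The gene that fell was Tmem208, whose product acts in an alternative targeting route to the ER. It was at 46.1, 41.2, 19.0 and 17.1 RPKM in chow-fed flox, fat-fed flox, chow-fed knockout and fat-fed knockout (-1.23 and -1.22). Sil1, the nucleotide exchange factor of BiP, was at 33.8, 27.7, 16.8 and 14.7 RPKM (-0.97 and -0.87). The SRP54 gene copies Srp54a (-0.42) and Srp54b (-0.40) share near-identical sequence, so their reads may have been split between them. Of 3 matched further oligosaccharyltransferase genes, 0 passed on either diet, against 1.62% of all genes on chow and 2.93% on high fat. Magt1 was just short of the threshold on chow, with malectin, Mlec, at -0.88 and Ost4 at -0.23. Of the 16 further genes of the lipid-linked oligosaccharide and of dolichol, 0 passed on either diet, against the same 1.62% and 2.93%. Their median was -0.07 on chow, close to that of all genes, and -0.23 on high fat, beside -0.13 for all genes. Of the 16, 10 were lower on chow and 13 on high fat, against 54.2% and 70.1% of all genes. On chow Alg12 was lowest (-0.59) and then Dhdds (-0.34), Nus1 (-0.31) and Alg6 (-0.22). The calnexin cycle folds glycoproteins, and its list here also held genes acting on glycoproteins that leave it, such as Edem1 and Lman1. All 9 listed genes with a value were lower on both diets, against 54.2% of all genes on chow and 70.1% on high fat. Their medians were -0.45 and -0.50, beside -0.02 and -0.13 for all genes. Edem1, which takes part in delivering misfolded glycoproteins for degradation, was at 22.5, 25.8, 11.2 and 12.1 RPKM and fell on high fat (-1.04, with -0.95 on chow), but did not pass at a common median (-0.86). Edem2 (-0.74), Pdia3 (-0.49) and the cargo receptor gene Lman1 (-0.49) followed on chow.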

How the data were processed

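The deposited tables hold RPKM values per the file headers, with 1 value per gene and group, and a table was matched to the group whose sample titles share the wording of its name. The submitters' processing notes name TopHat2 2.0.7, Cuffdiff 2.1.1 and mm10 without saying what each did. Annotation, scaling and how a group's libraries became 1 value were not given in the sources used here. From these values, rows of repeated symbols were summed (158 of 22923 symbols, no member among them), a gene was kept if any group reached 1 RPKM (10351 genes), genes listed at 0 in a compared group were left out, and log2 changes were computed with a pseudocount of 1 RPKM, which understates changes of low genes. Alb is listed at 0 in all 4 groups, so a 0 can be a failed estimate. Read depth is unknown. Low values multiplied by GENCODE transcript length stepped by whole reads (within 0.05 of a step) in at most 18.3% of values. This search could not give the depth, since the lengths behind the deposited values are unknown and each value stands for a whole group. With 1 value per group there was no test. How reads shared between near-identical genes or pseudogenes were counted is not given.

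The members, lists and threshold were chosen with earlier results of these data known. Named are all members past the threshold, the largest and smallest change on chow in each set, paralogue pairs, and up to 4 genes per further list. Other settings tried were a pseudocount of 0.1 or 5, keeping all genes, a minimum of 5 RPKM, a 1.5-fold threshold, the highest of repeated rows, rescaling to a median log2 ratio of 0, equalising the sums after leaving out the 50 most abundant genes, and zeros kept. Python 3.11.15, numpy 2.4.6, pandas 2.3.3 and matplotlib 3.10.9 were used, and the steps were tested on simulated data. Promoter sequences are from RefSeq (GRCm38.p6), lengths and positions from GENCODE M21 (GRCm38, the assembly that mm10 denotes).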

Additional observations from a re-analysis of the deposited data

Results flagged for a closer look

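The diet change of Ostc, which encodes a subunit of the STT3A form of the oligosaccharyltransferase, went in opposite directions in the genotypes. As deposited, it was -0.48 in flox livers and 0.12 in knockout livers on the log2 scale, a difference of 0.60. With the groups at a common median the values of Ostc were -0.46 and 0.28. Tram1, Rpn1, Sec61a1, Ddost, Dpagt1 and Spcs3 then also went in opposite directions, by at least 0.1 in each genotype. The values were -0.35 and 0.21 for Tram1, and -0.11 and 0.13 for Spcs3. As deposited, Ostc alone among the members met this rule. With equalised sums Sec61a1, Ddost, Dpagt1 and Spcs3 did not meet it, with flox values of -0.03, -0.06, -0.07 and -0.005. Ostc, Tram1 and Rpn1 still did, and Sec61b, Sec11c and Alg3 then did as well. The share of all genes with such opposite changes was not computed. Each direction rests on 1 value per group, and the difference was not tested.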

How the results depend on the processing

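On chow, the 9 genes past the threshold became 4 with a pseudocount of 5 RPKM, 4 with equalised sums and 18 at 1.5-fold. The share of all genes past it either way went from 1.62% to 0.930%, 1.30% and 4.93% in that order. On high fat, the 2 genes became 1 with a pseudocount of 5 RPKM, 0 at a common median, 0 with equalised sums and 18 at 1.5-fold. The share of all genes there went from 2.93% to 1.51%, 2.51%, 2.69% and 11.5%. The diet comparison in knockout livers (0 genes) had 1 at 1.5-fold, Dpm3, against 7.38% of all genes. The interaction (0 genes) had 1 at 1.5-fold, Ostc, against 5.35%. A pseudocount of 0.1, no filter, a filter of 5 RPKM, the highest of repeated rows and zeros kept left each of these counts as it was. Ddost, Ostc, Sec11c, Sec61a1 and Uggt1 did not pass on chow with a pseudocount of 5 or with equalised sums, and Sec61a1 and Uggt1 did not at a common median. Over all genes on high fat, 111 rose and 192 fell as deposited, and 146 and 116 did at a common median. No paired analysis was possible because the tables hold 1 value per group and no replicate could be left out. The unknown depth and spread between libraries limit every value.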

Other observations

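Genes that supply sugars for glycans had smaller median changes than the translocon genes, whose medians were -1.10 on chow and -0.79 on high fat. Of 11 listed genes of nucleotide sugar supply, 10 had enough expression to be compared. Of these, 0 passed the threshold on either diet, against 1.62% of all genes on chow and 2.93% on high fat. The median log2 change between knockout and flox livers was -0.27 on chow and -0.36 on high fat, beside -0.02 and -0.13 for all genes. Gmppb, which encodes the enzyme that makes GDP-mannose, was at 5.83 RPKM in chow-fed flox, 4.61 in fat-fed flox, 3.21 in chow-fed knockout and 2.01 in fat-fed knockout (log2 changes -0.70 and -0.90). On high fat the change of Gmppb lay between those of the translocon genes Sec61b (-0.96) and Sec61a1 (-0.81). Gmppa, the regulatory partner of Gmppb, had -0.61 on chow, and the hexosamine pathway genes Gfpt1 and Uap1 had -0.48 and -0.43.

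Of 10 Golgi genes that remodel N-linked glycans after the ER, 0 passed the threshold on either diet. Over all genes, 1.62% passed on chow and 2.93% on high fat. The Golgi genes had medians of -0.14 on chow and -0.41 on high fat beside -0.02 and -0.13 for all genes. Man2a2 (4.10, 4.9995, 1.97 and 2.71 RPKM in chow-fed flox, fat-fed flox, chow-fed knockout and fat-fed knockout), a mannosidase gene, had the lowest value on chow, at -0.78. The sialyltransferase gene St3gal4 (-0.73) and the branching enzyme genes Mgat2 (-0.71) and Mgat1 (-0.27) followed.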
